A study of Mus musculus with 36 samples.

Results

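Insulin-like growth factor 1, its receptor and 6 of its binding proteins were followed in mouse pancreatic fibroblasts that had been cultured alone or beside tumour cells. The members were the 8 rows of the count table, of 39017 in all, whose symbols were Igf1, Igf1r, Igfbp2, Igfbp3, Igfbp4, Igfbp5, Igfbp6 and Igfbp7. Fibroblasts of strain C57BL/6 were sequenced after mono-culture or after 48 h of co-culture with 1 of 8 tumour lines, namely clones E, H, K, M, N, T and V and a line labelled KPC1. After co-culture the fibroblasts were sorted away from GFP-expressing tumour cells by flow cytometry. Each of the 9 groups held 4 libraries, and all 36 were poly(A) RNA-seq libraries of 12532122 to 21985538 counted reads. The labels name no treatment or genetic change of the fibroblasts, give no culture time for mono-culture, and leave unexplained both KPC1 and the abbreviation PSC that the mono-culture titles carry. They also do not say whether the 4 libraries of a group came from separate cultures or animals, so p-values measure only the spread between these libraries. Each clone is a single clone, and a difference between clones is a difference between those lines.

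IGF1 is a secreted hormone that signals through the receptor tyrosine kinase IGF1R to promote growth and survival. Most IGF1 outside cells is held by binding proteins, which keep the hormone from the receptor, lengthen its life and can hand it over when proteases cut them. Fibroblasts are a major local source of IGF1 and of IGFBP3 to IGFBP6 in many tissues. IGFBP7 is a more distant relative that binds IGF1 weakly and is known as a matrix and vessel-wall protein.

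The 10 fibroblast markers, among them Col1a1, Col1a2 and Pdgfrb, were detected in all groups, with a mean summed level of 14842 CPM (counts scaled to library size, after TMM scaling) in the KPC1 co-culture to 26759 CPM in the clone M co-culture and 21937 CPM in mono-culture. Immune markers summed to at most 16.2 CPM in a library, endothelial markers to at most 6.33 CPM and acinar markers to at most 0.165 CPM. The 4 markers of stellate cells or myofibroblasts (Acta2, Tagln, Postn and Des) summed to 481 to 638 CPM in mono-culture and to 929 to 3692 CPM in the co-culture libraries, with the highest mean beside clone K (2880 CPM) and the lowest beside KPC1 (1059 CPM). These are also the lines with the highest and the lowest Igf1, and the part of this marker list in the results was not tested. Most of the sum was Postn and Acta2, which averaged 1060 and 366 CPM over all 36 libraries and 393 and 143 CPM in mono-culture. Tagln averaged 119 and 36.9 CPM. Des did not rise, at 3.61 CPM over all libraries and 3.92 CPM in mono-culture. Of 11 epithelial markers, Sox9 alone averaged above 1 CPM in mono-culture. The other 10 summed to between 0.988 and 1.70 CPM in the 4 mono-culture libraries and to between 19.8 and 860 CPM in the 32 co-culture libraries. Krt8, Krt18, Krt19, Cdh1 and Cldn6 averaged 11.8 to 137 CPM over all 36 libraries and at most 0.258 CPM in mono-culture. In any library Epcam reached at most 0.495 CPM, Esrp1 0.153 CPM and Cldn4 0.112 CPM. Epcam and Cldn7 averaged more in mono-culture (0.176 and 0.281 CPM) than over all libraries (0.053 and 0.101 CPM). Krt7 averaged 0.372 CPM in mono-culture and 0.498 CPM over all libraries. The sum of the epithelial markers, though not each marker, therefore moved with co-culture, and values that bear on this are given beside the results.

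Of the 8 members, 7 passed the filter on low counts and were tested. Igfbp2 was at 0 counts in 31 of 36 libraries and at 3 counts or fewer in the rest, 9 counts in all, so it was not detectable above a floor of 3 counts per library (0.131 to 0.228 CPM). In all, 4 members were called in 1 direction in every co-culture. Igfbp3 and Igfbp7 were higher than in mono-culture in all 8 lines, and Igfbp5 and Igfbp6 were lower in all 8. Of these, Igfbp5 passed the filter only through mono-culture, the group where it was high. Among all 14439 genes tested, 3.42% were called higher in every line and 3.19% lower. The members were chosen with earlier results of these data known, so these shares are no test of them. Igf1, Igf1r and Igfbp4 differed from mono-culture in some lines and not in others. All 8 comparisons share the same 4 mono-culture libraries. Their titles are numbered after those of all co-cultures, and the labels do not say whether they were prepared apart. Any difference in preparation cannot be told apart from a difference of culture. In bulk samples, fewer cells that make a transcript and less of it in each cell cannot be told apart.

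The promoters of the 4 members that were called in every line are shown because these members differed from mono-culture beside each tumour line. They are RefSeq windows of build GRCm38.p6, from 250 to 21 bases before the annotated start, 5′ to 3′ along the gene, and all 8 members were matched by symbol. Igfbp3 is given at chr11:7213944-7214173 on the minus strand, Igfbp7 at chr5:77408066-77408295 on the minus strand, Igfbp5 at chr1:72874886-72875115 on the minus strand and Igfbp6 at chr15:102143936-102144165 on the plus strand, where the RefSeq start lies upstream of the GENCODE start. Capitals mark matches, on either strand, to TATAA (core of the TATA box), CCAAT (the CAAT box), GGGCGG (the GC box of SP factors), TGANTCA (the site of AP-1), ACGTG (core of hypoxia elements and of many E-boxes) or TGATGNAA (the composite site of C/EBP and ATF4).
Igfbp3: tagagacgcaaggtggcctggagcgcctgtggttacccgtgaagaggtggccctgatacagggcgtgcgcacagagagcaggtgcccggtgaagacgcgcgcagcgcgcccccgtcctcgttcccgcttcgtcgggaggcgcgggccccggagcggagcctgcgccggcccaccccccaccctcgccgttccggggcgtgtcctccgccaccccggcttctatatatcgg
Igfbp7: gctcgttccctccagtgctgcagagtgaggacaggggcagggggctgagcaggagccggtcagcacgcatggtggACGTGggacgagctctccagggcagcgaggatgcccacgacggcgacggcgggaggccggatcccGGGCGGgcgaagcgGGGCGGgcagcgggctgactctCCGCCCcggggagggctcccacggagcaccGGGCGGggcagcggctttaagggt
Igfbp5: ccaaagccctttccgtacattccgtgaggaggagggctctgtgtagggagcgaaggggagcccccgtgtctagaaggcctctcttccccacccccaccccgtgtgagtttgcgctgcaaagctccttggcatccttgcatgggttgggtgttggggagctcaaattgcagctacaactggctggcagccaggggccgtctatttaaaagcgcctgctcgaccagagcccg
Igfbp6: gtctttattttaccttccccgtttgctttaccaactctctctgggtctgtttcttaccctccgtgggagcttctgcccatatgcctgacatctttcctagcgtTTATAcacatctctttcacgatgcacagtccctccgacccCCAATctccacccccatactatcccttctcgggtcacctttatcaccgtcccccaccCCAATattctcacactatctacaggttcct
The higher pair, Igfbp3 and Igfbp7, had a GC content of 71.7% and 73.9%, and Igfbp5 of 60.4%, while Igfbp6 lay below the median of 51.7% over 32851 promoters. Igfbp7 held 4 matches to GGGCGG, which is held by 29.8% of those promoters, and 1 to ACGTG, held by 15.1%. Igfbp6 held 2 matches to CCAAT, held by 32.2%, and 1 to TATAA, held by 21.9%, the latter read on the opposite strand. Neither Igfbp3 nor Igfbp5 held a match to any of the 6 motifs in its window, and TGANTCA (in 6.34% of all promoters) and TGATGNAA (in 3.23%) matched none of the 4. No match overlapped another. A match describes the letters of the window and is not evidence of a bound factor.

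Igf1, the ligand (ENSMUSG00000020053, chr10:87858265-87937042, plus strand, GRCm38), differed strongly between tumour lines, with group means from 30.3 CPM beside KPC1 to 235 CPM beside clone K. In mono-culture it stood at 50.2, 50.6, 37.0 and 53.0 CPM in replicates 1 to 4. In the clone K co-culture it stood at 180, 256, 266 and 239 CPM. In the clone M co-culture it stood at 165, 253, 126 and 210 CPM. Every clone K and clone M library lay above every mono-culture library, by 2.30 ± 0.32 (SE, n = 4 against 4) on the log2 scale for clone K (edgeR adjusted p = 4.22e-06) and by 1.98 ± 0.31 for clone M (edgeR adjusted p = 2.33e-05).

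Intermediate levels were found with clones N, E and V. Igf1 stood at 98.8, 113, 102 and 74.4 CPM with clone N, and at 76.9, 122, 97.1 and 69.4 CPM with clone E. With clone V it stood at 29.1, 119, 90.4 and 109 CPM. All libraries of clones N and E lay above mono-culture, whereas clone V replicate 1 lay below it. The log2 differences were 1.02 (SE 0.31) for clone N (edgeR adjusted p = 0.00890), 0.93 (SE 0.31) for clone E (edgeR adjusted p = 0.0195) and 0.86 (SE 0.31) for clone V (edgeR adjusted p = 0.0169). The clone E call was lost without clone E replicate 2 (adjusted p = 0.0689) or mono-culture replicate 3 (0.0642), and the clone V call without clone V replicate 2 (0.0782) or 4 (0.0552) or mono-culture replicate 3 (0.0554).

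Igf1 was not called in the other 3 lines. It stood at 56.1, 66.8, 53.5 and 77.1 CPM with clone H, and at 31.6, 31.7, 41.4 and 56.3 CPM with clone T. With KPC1 it stood at 16.9, 21.9, 37.8 and 44.8 CPM. All 4 clone H libraries lay above mono-culture, but the log2 difference of 0.41 did not pass (SE 0.31, edgeR adjusted p = 0.266). The values of clones T and KPC1 overlapped those of mono-culture, with log2 differences of -0.25 (edgeR adjusted p = 0.527) and -0.66 (edgeR adjusted p = 0.0693). Without KPC1 replicate 4, the highest of that group, Igf1 was called lower than in mono-culture (-0.91, adjusted p = 0.0200).

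Igf1 thus ran in the order clone K, M, N, E, V, H, mono-culture, T and KPC1. Of the 8 pairs of neighbours in this order only clones M and N differed (log2 difference 0.96, edgeR adjusted p = 0.0257). Of the 28 pairs of co-cultures, 18 differed, the widest being clone K over KPC1 by 2.96 on the log2 scale (edgeR adjusted p = 2.22e-08). The differences among the 7 clones passed as a whole (edgeR F-test over 6 contrasts, adjusted p = 1.98e-07), as did 67.5% of all genes. The mean of the 7 clonal co-cultures was 2.05-fold the mono-culture level (log2 1.04 ± 0.25 SE, edgeR adjusted p = 0.00102), and KPC1 lay 3.23-fold below that mean (log2 -1.69 ± 0.27 SE, edgeR adjusted p = 1.64e-05).

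**Figure D1:**
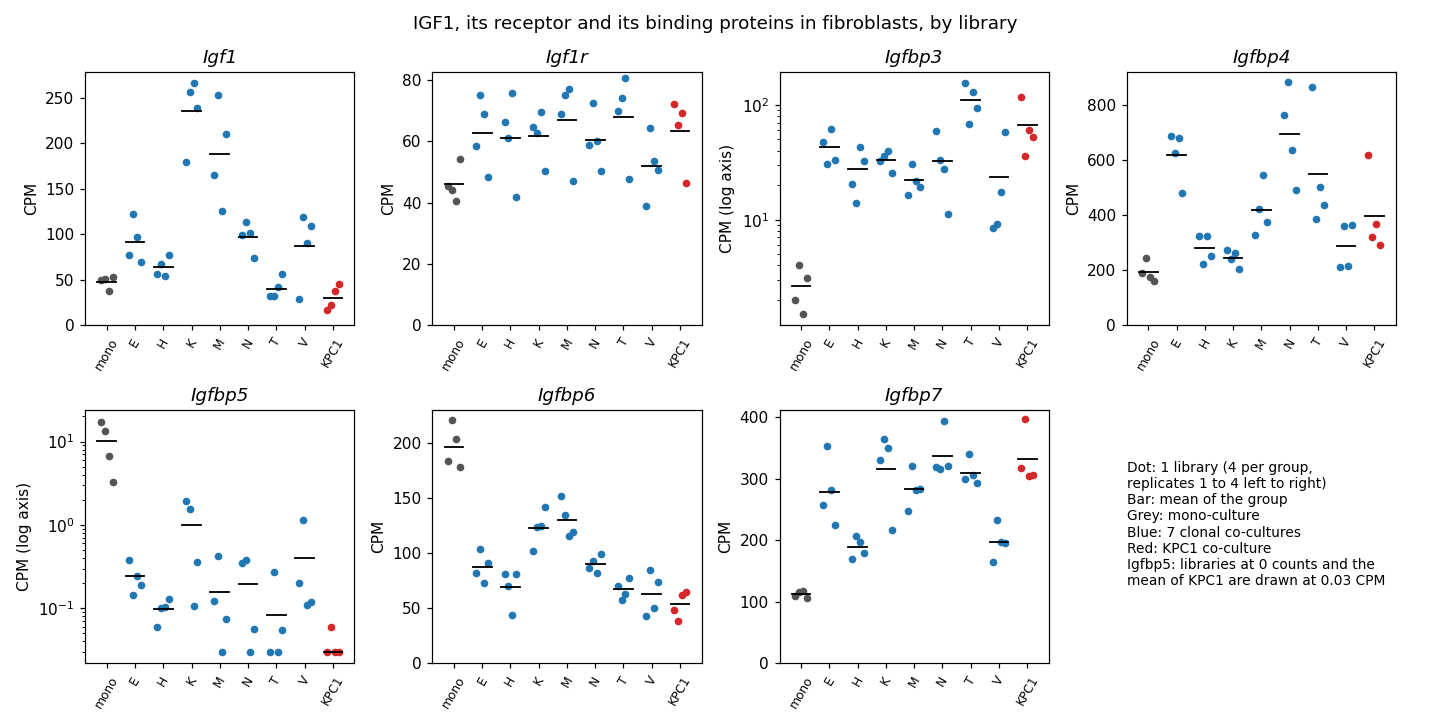
Level of each detected member in CPM (vertical axis; log axis for Igfbp3 and Igfbp5) in the 4 libraries of each of the 9 groups, with the group mean as a bar. Igfbp3 and Igfbp7 lie above mono-culture and Igfbp5 and Igfbp6 below it in every co-culture library, while Igf1 ranges from 16.9 to 266 CPM among the co-cultures.

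Igf1r, the receptor (ENSMUSG00000005533, chr7:67952827-68233668, plus strand), differed little between groups. It stood at 45.3, 44.3, 40.4 and 54.4 CPM in mono-culture and between 39.0 and 80.6 CPM in the co-culture libraries, and the libraries of every co-culture overlapped those of mono-culture. The group means ran from 46.1 CPM in mono-culture to 68.0 CPM with clone T. It was called higher with clone T (log2 0.56, edgeR adjusted p = 0.0137), clone M (0.54, adjusted p = 0.0348) and KPC1 (0.46, edgeR adjusted p = 0.0367), and over the mean of the clones (0.42 ± 0.15 SE, edgeR adjusted p = 0.0179). None of the 28 pairs of co-cultures differed, and neither did the 7 clones as a whole (edgeR F-test, adjusted p = 0.541).

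These receptor calls were close to the threshold. The call over the mean of the clones was lost without mono-culture replicate 1 (adjusted p = 0.0506), 2 (0.0562) or 3 (0.0792). The KPC1 and clone M calls were each lost without any 1 of those 3 libraries, KPC1 also without KPC1 replicate 1, 2 or 3 (adjusted p = 0.0673 to 0.107) and clone M without clone M replicate 1, 2 or 3 (0.0662 to 0.116). Replicate 4 held the lowest Igf1r level in 7 of the 8 co-cultures, at 41.8 to 50.4 CPM in those 7, but the highest in mono-culture. Clones E and H passed once replicate 4 of the respective co-culture was left out (adjusted p = 0.0327 and 0.0148), and clone H also without mono-culture replicate 4 (0.0456). In edgeR fits of only the groups compared, Igf1r was called with clones E, K and N (adjusted p = 0.0180, 0.0178 and 0.0189). A replicate block added clones E, H, K and N, as given at the end. Other alternatives lost calls: KPC1 with no scaling (0.0658) and with limma (0.0858 and 0.0838), and clone M with no filter (0.0537).

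The level of the ligand relative to the receptor was compared per gene length. The ratio of Igf1 to Igf1r in RPKM (reads scaled for gene length and library size) was 1.68 ± 0.17 (SD, n = 4) in mono-culture, 6.23 ± 1.32 with clone K and 4.79 ± 1.99 with clone M. It was 1.04 ± 0.58 with clone T and 0.841 ± 0.524 with KPC1. Its 4 mono-culture values, 1.48 to 1.85, lay below all those of clones K and M. They overlapped those of clone T and of KPC1.

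Igfbp3, the main carrier of IGF1 in blood and a protein with effects of its own on cells, was the binding protein with the highest gain (ENSMUSG00000020427, chr11:7206086-7213923, minus strand). It was nearly silent in mono-culture, at 1.98, 4.01, 1.52 and 3.11 CPM. With clone T it stood at 154, 67.8, 128 and 93.9 CPM, and with KPC1 at 116, 35.7, 60.1 and 52.7 CPM. The lowest co-culture libraries were clone V replicates 1 and 2, at 8.54 and 9.19 CPM, which still lay above every mono-culture library. The other clone V libraries stood at 17.4 and 58.6 CPM.

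The remaining lines fell between. Igfbp3 stood at 47.4, 30.6, 61.2 and 33.4 CPM with clone E, at 32.3, 35.6, 39.3 and 25.5 CPM with clone K and at 58.9, 33.2, 27.4 and 11.3 CPM with clone N. With clone H it stood at 20.3, 13.9, 43.4 and 32.2 CPM, and with clone M at 16.2, 30.6, 21.7 and 19.4 CPM. Clone K replicates lay close together and clone N replicates far apart. The log2 differences from mono-culture ran from 3.02 ± 0.58 (SE) with clone M (edgeR adjusted p = 2.97e-04) to 5.35 ± 0.61 with clone T (edgeR adjusted p = 4.38e-08). The difference with clone V, 3.10, fell to 2.10 without clone V replicate 4 (edgeR adjusted p = 0.00090).

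Over the mean of the clones Igfbp3 was 13.1-fold higher (log2 3.71 ± 0.53 SE, edgeR adjusted p = 1.30e-06), with 28 of 28 clonal libraries above mono-culture. Ranked from the highest log2 difference, it was number 160 of the 14439 genes. KPC1 lay above the mean of the clones by 0.89 ± 0.33 (edgeR adjusted p = 0.0326), a call lost without KPC1 replicate 1 (0.47, adjusted p = 0.365) or 3 (0.94, adjusted p = 0.0525). Clone T differed from clones H, K, M, N and V, while 21 of the 28 pairs of co-cultures did not pass. Along the order of levels (clone T, KPC1, E, K, N, H, V, M, mono-culture) only the last step passed.

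Igfbp7, the low-affinity relative (ENSMUSG00000036256, chr5:77349240-77408041, minus strand), was the most abundant binding protein transcript per length in every co-culture. It stood at 110, 116, 117 and 106 CPM in mono-culture. The highest levels were found with clone N, at 319, 316, 393 and 320 CPM, and with KPC1, at 317, 397, 305 and 306 CPM. The lowest were with clone H, at 169, 206, 198 and 179 CPM, and with clone V, at 164, 233, 198 and 196 CPM. No co-culture library fell to the mono-culture range.

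The log2 gain of Igfbp7 ran from 0.75 ± 0.14 (SE) with clone H (edgeR adjusted p = 2.76e-05) to 1.59 ± 0.14 with clone N (edgeR adjusted p = 3.60e-10). The mean over the clones was 1.25 ± 0.11, a 2.38-fold difference (edgeR adjusted p = 1.97e-10). The levels fell into a higher set of 6 lines (N, KPC1, K, T, M and E) and a lower set of clones V and H. All 12 pairs between these sets passed, and none of the other 16 pairs of co-cultures did. Within the order, clone E differed from clone V (log2 0.50, edgeR adjusted p = 0.00352) and clone H from mono-culture, and the other 6 steps did not pass. KPC1 lay 0.31 ± 0.10 above the mean of the clones (edgeR adjusted p = 0.0120), but not without KPC1 replicate 2 (0.21, adjusted p = 0.136), the highest library of the series for this gene.

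Igfbp4, a carrier that is cut by the protease PAPP-A (ENSMUSG00000017493, chr11:99041244-99054392, plus strand), was higher in 6 of 8 lines. In mono-culture it stood at 190, 244, 174 and 161 CPM. With clone N it stood at 766, 885, 638 and 492 CPM, with clone E at 689, 626, 681 and 480 CPM and with clone T at 865, 387, 503 and 437 CPM. With clone K it stood at 275, 241, 263 and 204 CPM and with clone H at 326, 224, 323 and 253 CPM, so that both overlapped mono-culture. The other lines stood at 328 to 547 CPM with clone M, 290 to 618 CPM with KPC1 and 212 to 365 CPM with clone V. Clone V also overlapped mono-culture.

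The Igfbp4 difference was largest with clone N (log2 1.86 ± 0.25 SE, edgeR adjusted p = 9.55e-07), followed by clone E at 1.69, clone T at 1.51, clone M at 1.12 and KPC1 at 1.05. Clone V passed narrowly (0.59, edgeR adjusted p = 0.0415), and the call was lost without clone V replicate 2 (adjusted p = 0.135) or 4 (0.141) or mono-culture replicate 1 (0.0718), 3 (0.0916) or 4 (0.116). Clones H (0.55, edgeR adjusted p = 0.0575) and K (0.35, edgeR adjusted p = 0.342) did not pass, and clone H passed without clone H replicate 2 (0.0405) or mono-culture replicate 2 (0.0321). Over the mean of the clones Igfbp4 was 2.14-fold higher (log2 1.10 ± 0.20 SE, edgeR adjusted p = 4.96e-05). No step in the order of levels (clone N, E, T, M, KPC1, V, H, K, mono-culture) passed, although 13 of the 28 pairs of co-cultures differed.

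Igfbp5, a carrier that binds extracellular matrix (ENSMUSG00000026185, chr1:72857932-72874884, minus strand), was nearly absent from the co-cultured fibroblasts. In mono-culture it stood at 17.3, 13.2, 6.69 and 3.29 CPM, from 315, 240, 88 and 72 counts. In co-culture the highest libraries were clone K replicates 1 and 2 at 1.93 and 1.56 CPM (41 and 24 counts) and clone V replicate 2 at 1.15 CPM (24 counts). All other co-culture libraries held 0.42 CPM or less, and KPC1 held 1 count in its 4 libraries together.

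Fitted fold changes of so few counts depend on the prior count, so the summed counts are given. Mono-culture held 715 counts of Igfbp5, against 164 in the 28 clonal libraries, a 31.3-fold ratio at equal depth (exact 95% interval 26.4 to 37.3, counting error only). Without mono-culture replicate 1 the ratio was 23.5, and without mono-culture replicate 4 it was 40.6, both outside that interval. The ratio was lowest for clone K, at 10.4 (interval 8.18 to 13.4), but 16.7 (11.8 to 24.2) without clone K replicate 1. Leaving out replicate 2 likewise moved it from 23.6 to 68.5 for clone V, from 63.5 to 157 for clone M and from 121 to 543 for clone T. It was 694 for KPC1, with an interval of 124 to 27463 that reflects its 1 count. Every line passed the test (edgeR adjusted p = 7.12e-04 for clone K, the largest of the 8). In the contrast of the clonal mean Igfbp5 had the lowest fitted log2 difference of the 14439 genes. Igfbp5 passed the filter on low counts only through mono-culture, the group where it was high. Its calls and this rank therefore add no support beyond the counts themselves. The 7 clones differed among themselves (edgeR F-test, adjusted p = 0.00899), but not without clone K replicate 1 (0.101). The clones together held 22.2 times the KPC1 level at equal depth (exact interval 3.92 to 881, from the 1 KPC1 count). KPC1 passed against the mean of the clones (edgeR adjusted p = 0.0392), a call lost without any 1 of its 4 libraries (adjusted p = 0.0501 to 0.111), without clone M replicate 2 (0.0519) or without clone T replicate 2 (0.0707).

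Igfbp6, a carrier that prefers IGF2 to IGF1 (ENSMUSG00000023046, chr15:102144362-102149511, plus strand), fell by a smaller factor from a high level. It stood at 184, 221, 203 and 179 CPM in mono-culture. The highest co-cultures were clone M, at 152, 135, 115 and 119 CPM, and clone K, at 102, 124, 125 and 142 CPM. The lowest were KPC1, at 48.6, 38.8, 62.0 and 65.0 CPM, and clone V, at 43.0, 84.4, 49.8 and 74.2 CPM. All 32 co-culture libraries lay below all 4 mono-culture libraries.

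Clones N and E held 81.9 to 99.0 and 72.7 to 104 CPM of Igfbp6, and clones H and T 44.4 to 81.0 and 57.6 to 77.9 CPM. The fall ran from -0.59 ± 0.18 (SE, log2) with clone M (edgeR adjusted p = 0.0164) to -1.87 ± 0.19 with KPC1, and over the mean of the clones it was -1.18 ± 0.12, or 2.27-fold (edgeR adjusted p = 4.70e-09). The clone M call was lost without clone M replicate 3 (-0.54, adjusted p = 0.0604) or mono-culture replicate 2 (-0.53, adjusted p = 0.0566). KPC1 lay below the mean of the clones by a further -0.69 ± 0.15 (edgeR adjusted p = 3.87e-04). In the order mono-culture, clone M, K, N, E, H, T, V and KPC1 only the first step passed, and 14 of the 28 pairs of co-cultures differed.

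**Figure D2:**
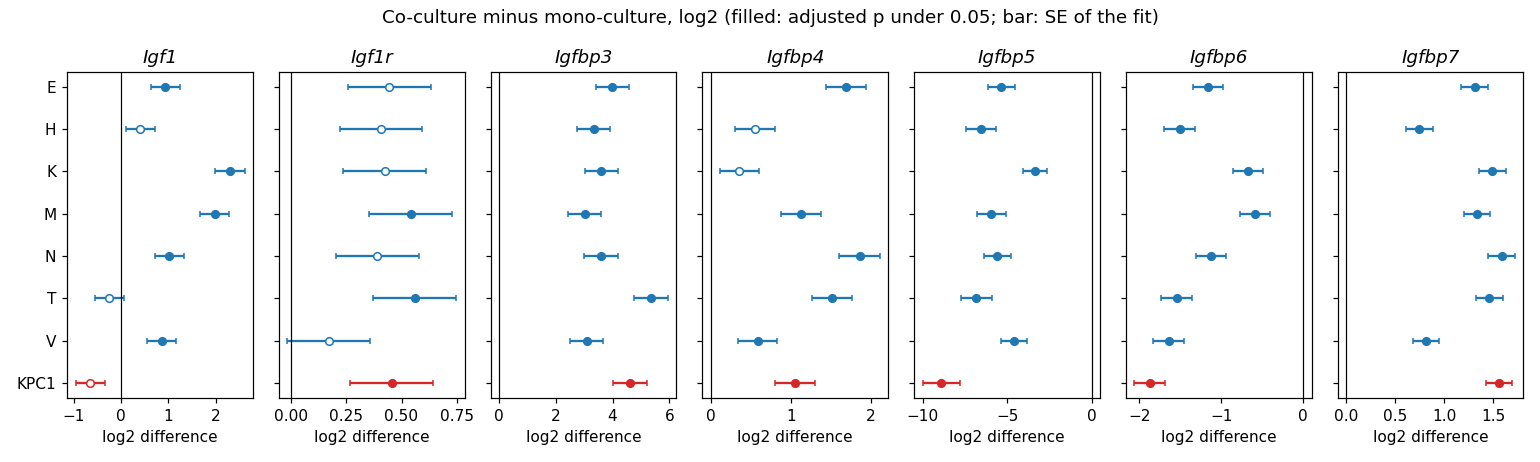
Log2 difference of each member from mono-culture (horizontal axis, scaled separately for each gene) for the 8 co-cultures, with the SE of the fit as a bar and filled symbols where the adjusted p was under 0.05. Igfbp3 runs from 3.02 to 5.35 and Igfbp7 from 0.75 to 1.59, all filled, while Igf1 runs from -0.66 with KPC1 to 2.30 with clone K.

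The members were then counted in each line and set beside all genes. They were chosen with earlier results of these data known, so these counts, and the medians and overlaps below, describe the list and are no test of it. With clone E 6 of the 7 tested members were called beside 32% of all genes, 4 higher beside 16.5% and 2 lower beside 15.5%. With clone H 4 of the 7 tested members were called beside 54.2% of all genes, 2 higher beside 27.8% and 2 lower beside 26.4%. With clone K 5 of the 7 tested members were called beside 19.1% of all genes, 3 higher beside 10.4% and 2 lower beside 8.69%. The 2 members lower in these lines, as in every line, were Igfbp5 and Igfbp6. Igfbp5 passed the filter only through mono-culture, so its call adds no support to any of these counts, and of the 2 only Igfbp6 bears on the lower counts. With clone M 7 of the 7 tested members were called beside 23% of all genes, 5 higher beside 12.2% and 2 lower beside 10.8%. With clone N 6 of the 7 tested members were called beside 39% of all genes, 4 higher beside 19.7% and 2 lower beside 19.2%. With clone T 6 of the 7 tested members were called beside 49.8% of all genes, 4 higher beside 25% and 2 lower beside 24.7%. Clone M was the line in which all tested members were called, Igf1r and Igfbp6 near the threshold. With clone V 6 of the 7 tested members were called beside 58.3% of all genes, 4 higher beside 29.4% and 2 lower beside 28.9%. With KPC1 6 of the 7 tested members were called beside 59% of all genes, 4 higher beside 30.5% and 2 lower beside 28.5%. With clones H, T and V and with KPC1 the share of all genes called was high, and the members' counts stand against it. Over the mean of the clones 7 of the 7 tested members were called beside 49.2% of all genes, 5 higher beside 24.3% and 2 lower beside 24.9%. Between KPC1 and that mean 5 of the 7 tested members were called beside 41.1% of all genes, 2 higher beside 22.3% and 3 lower beside 18.8%.

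The median log2 difference of the 7 members ran from 0.41 with clone H to 1.12 with clone M, and the median of all genes lay between -0.01 and 0.01. The number of members whose co-culture libraries did not overlap those of mono-culture was 6 with clone E beside 37.3% of all genes, 5 with clone H beside 51.4% of all genes, 5 with clone K beside 28.8% of all genes and 6 with clone M beside 32.1% of all genes. It was 6 with clone N beside 40.6% of all genes, 5 with clone T beside 48.9% of all genes, 4 with clone V beside 52.3% of all genes and 5 with KPC1 beside 53.6% of all genes. Igfbp3, Igfbp5, Igfbp6 and Igfbp7 were among these in every line. Igfbp5 is counted here and below although it passed the filter only through mono-culture, so it adds no support to these numbers. Over the 28 clonal libraries together, the 4 members Igfbp3, Igfbp5, Igfbp6 and Igfbp7 did not overlap mono-culture, beside 8.01% of all genes, and between KPC1 and the clones 0 members and 0.298% of all genes did not overlap.

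Every co-culture library had a higher share of Igfbp7 and a lower share of Igfbp6 among the binding proteins than every mono-culture library, given here as a description with no test. In summed RPKM of the 6 binding proteins, Igfbp6 made up 54.7% ± 1.0 (SD, n = 4) in mono-culture, followed by Igfbp7 at 29.03% ± 1.56 and Igfbp4 at 15.4% ± 1.7. In co-culture Igfbp7 led, with 47.1% (clone E) to 60.8% (KPC1). Igfbp6 made up 10.8% (KPC1) to 25.04% (clone K) and Igfbp4 14.2% (clone K) to 32.99% (clone E). Igfbp3 made up 1.91% (clone M) to 8.89% (clone T), against 0.338% in mono-culture. The summed level was 337 ± 24.4 RPKM in mono-culture, 557 ± 48.0 with clone N, 298 ± 11.6 with clone H and 299 ± 60.5 with clone V.

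**Figure D3:**
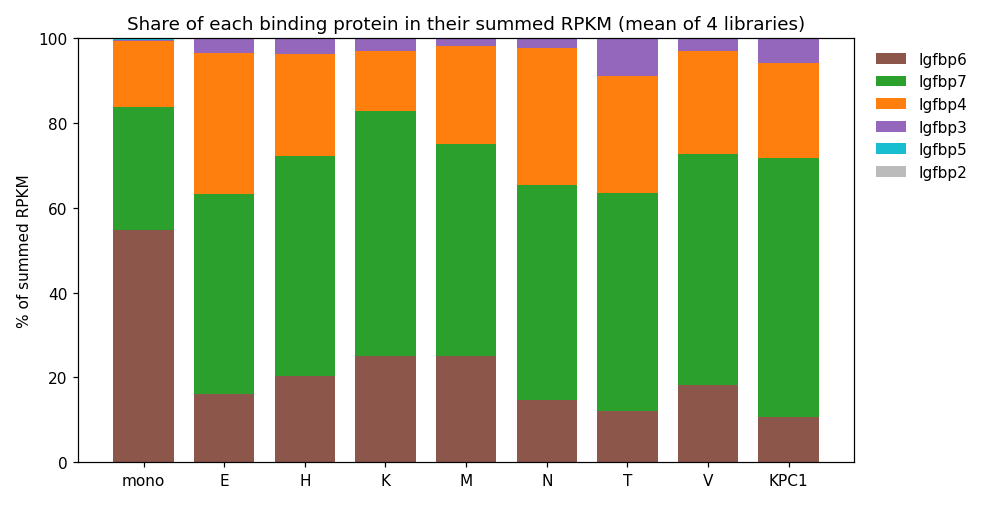
Share of each binding protein in the summed RPKM of the 6 (vertical axis, in percent; mean of 4 libraries) for the 9 groups. Igfbp6 is the largest part in mono-culture at 54.7%, and Igfbp7 is the largest in each co-culture; the shares of Igfbp2 and Igfbp5 are too small to see.

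Set against the sum of the 6 binding proteins, Igf1 stood at 2.11 ± 0.42 RPKM per 100 RPKM in mono-culture. It stood at 7.45 ± 1.42 with clone K and 5.66 ± 1.52 with clone M, where all libraries lay above mono-culture. With clone T it stood at 1.15 ± 0.41 and with KPC1 at 0.981 ± 0.502. All KPC1 libraries lay below mono-culture (highest 1.55 against a lowest of 1.60), whereas clone T, at up to 1.71, overlapped it. Igfbp6, which prefers IGF2, and Igfbp7, which binds IGF1 weakly, made up 54.7% and 29.03% of the sum in mono-culture. The ratios are therefore not ratios of Igf1 to its main carriers. They describe transcripts, and protein was not measured.

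Epithelial marker levels did not run alike for all members. In 5 of the 8 co-cultures the library with the most epithelial RNA, summed over the 11 markers, also held the most Igfbp3, and in 5 the most Igfbp4. Replicate 1 of clone T and of KPC1 are examples, with 860 and 621 CPM of the 10 markers without Sox9. For Igfbp7 the library with the least epithelial RNA was the highest in 7 of the 8 co-cultures, and the library with the most was the highest in none. The library with the least epithelial RNA was replicate 2 in those 7 lines, so for Igfbp7 the epithelial level and the replicate number cannot be told apart. For Igf1 the library with the most epithelial RNA was the lowest in 4 of 8 co-cultures.

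Clone K replicate 2 had the least epithelial RNA of the co-cultures, at 19.8 CPM of the 10 markers. It held 256 CPM of Igf1, 35.6 of Igfbp3, 1.56 of Igfbp5, 124 of Igfbp6 and 364 of Igfbp7, each on the same side of every mono-culture library as the rest of clone K. With the 2 libraries of each co-culture that were lowest in the summed epithelial markers, a choice made after seeing the data that took replicates 1 and 2 in 5 of the 8 lines, Igfbp3, Igfbp5 and Igfbp7 were still called in all 8 lines and Igfbp6 in 7, all but clone M (-0.46, edgeR adjusted p = 0.194). The log2 difference of Igfbp3 was then 1.70 with clone V in place of 3.10, 2.62 with clone H in place of 3.34 and 3.99 with KPC1 in place of 4.61, and that of Igfbp4 was 1.18 with clone T in place of 1.51 and 0.63 with KPC1 in place of 1.05. Igf1 was still called with clones K and M and no longer with clones E (adjusted p = 0.0741), N (0.0648) and V (0.208), and Igf1r was no longer called with KPC1 (0.262) but was called with clones E (0.52, adjusted p = 0.0351) and H (0.44, adjusted p = 0.0447). In 7 of the 8 lines the libraries kept included the one with the highest Igfbp7, so this choice favoured the Igfbp7 calls. The part of tumour cell RNA in the levels of Igfbp3 and Igfbp4 was not tested.

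**Figure D4:**
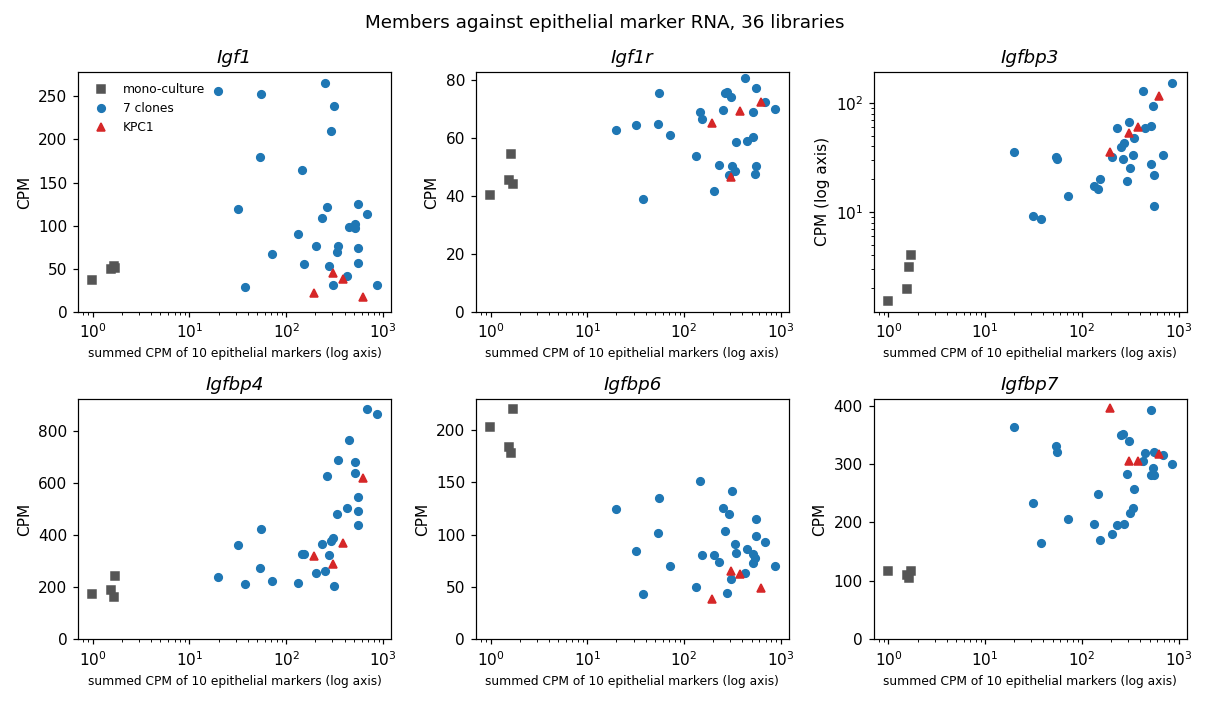
Level of 6 members in CPM (vertical axis; log axis for Igfbp3) against the summed CPM of 10 epithelial markers without Sox9 (horizontal log axis) in each of 36 libraries. Mono-culture libraries lie at 0.988 to 1.70 CPM of the markers, and Igfbp7 is above and Igfbp6 below mono-culture also at the lowest co-culture value, 19.8 CPM.

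The genes whose 9 group means ran most like those of a member were found by Pearson correlation of log2 CPM over 11695 genes, as a description with no test. They were Snai2 and Tenm3 for Igf1 (r = 0.96 and 0.95), B4galnt1 and St6gal1 for Igf1r (both 0.96), Pcdh1 and Ptpn9 for Igfbp3 (both 0.96) and Tmem41a and Rbp4 for Igfbp4 (both 0.97). For Igfbp5 they were Lamp2 and Ppm1h (0.98 and 0.97), for Igfbp6 Lrpap1 and Ggact (both 0.99) and for Igfbp7 Car8 and Ndor1 (0.96 and 0.95). With 9 points, and with mono-culture far from the others for most members, such values arise readily among many genes.

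Of 36 other genes of the IGF axis, a list also chosen with earlier results known, 33 were tested, Igfbp1, Igfals and Igfbpl1 being too low. Over the mean of the clones 18 were called, 14 higher and 4 lower, with a median log2 difference of 0.16 beside 0.01 for all genes, and 49.2% of all genes were called in that contrast. Called by line, their number ran from 9 with clone M (8 higher, 1 lower) and 10 with clone K (9 and 1) to 20 with KPC1 (11 and 9) and 21 with clone V (12 and 9). Of all genes, 23% were called with clone M, 19.1% with clone K, 59% with KPC1 and 58.3% with clone V.

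Among called axis genes with a mean of at least 2 CPM, the 3 largest differences over the mean of the clones were those of Adam12, Stc1 and Stc2, which act on the release of IGF1 from its carriers. Adam12, a metalloprotease that can cut IGFBP3 and IGFBP5, rose from 6.48 ± 0.41 CPM (SD, n = 4) in mono-culture to 37.68 ± 17.97 CPM (SD, n = 28) in the clones (log2 2.41, edgeR adjusted p = 3.57e-08) and was called in all 8 lines. Pappa, the protease of IGFBP4, rose from 7.35 ± 1.12 to 15.3 ± 5.8 CPM over the clones (log2 0.999, edgeR adjusted p = 5.83e-04), and was called in 6 lines but not with clone H or KPC1. Stc1 and Stc2, secreted inhibitors of PAPP-A, rose by 1.94 and 1.69 on the log2 scale (edgeR adjusted p = 1.25e-05 and 2.91e-05), each in 6 lines and neither with clones K and M. Of the same role group, the serine proteases Htra1 and Htra3, named after their values were seen, were lower over the clones (-0.57, edgeR adjusted p = 7.56e-06, and -0.78, edgeR adjusted p = 0.00443), Htra1 in 7 lines and Htra3 in 4, down to -2.21 with clone V.

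Clones K and M, with the highest Igf1, thus held Stc1 at 1.46 and 2.27 CPM and Stc2 at 11.8 and 5.93 CPM, against 17.5 CPM of Stc1 with clone N and 43.6 CPM of Stc2 with clone V. KPC1, with the lowest Igf1, held the lowest Adam12 of the co-cultures at 11.9 CPM and a Pappa level of 7.64 CPM beside 7.35 in mono-culture. Clone T had Pappa called higher, although its mean Igf1 of 40.2 CPM also lay below the 47.7 CPM of mono-culture, without being called. A relation between Igf1 and these genes was not tested. KPC1 lay below the mean of the clones for Adam12 (log2 -1.54, edgeR adjusted p = 3.16e-05) and Pappa (-0.95, edgeR adjusted p = 0.00148) and above it for Stc1 (1.64) and Stc2 (0.76).

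The other ligand, Igf2, was scarce, at 0.530 ± 0.194 CPM in mono-culture. It rose with clone V to 4.40 ± 1.75 CPM and with clone N to 2.08 ± 0.69 CPM, and less with clone E (1.28 ± 0.61 CPM). Its call over the mean of the clones (1.04, edgeR adjusted p = 0.0231) was lost without mono-culture replicate 3 (0.0781) or 4 (0.103). Its clearance receptor Igf2r and the insulin receptor Insr did not pass over the mean of the clones (-0.18, edgeR adjusted p = 0.351, and 0.23, edgeR adjusted p = 0.0930). The growth hormone receptor Ghr did not pass either (0.05, edgeR adjusted p = 0.772), but was higher with clone T and with KPC1 (0.44 and 0.59).

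Apart from Adam12, the axis genes called higher in all 8 lines were Jak2, a kinase of the growth hormone receptor, and Socs2, a feedback inhibitor of that receptor, both named after their values were seen. Jak2 ranged from 0.51 with clone M to 1.33 with KPC1 and Socs2 from 0.73 with clone M to 1.97 with KPC1. By role, 4 of 7 proteases and protease inhibitors were called higher and 2 lower over the mean of the clones, 3 of 6 genes of the growth hormone branch higher and 0 lower, 2 of 7 receptors and adaptors higher and 1 lower, and 3 of 7 downstream genes higher and 1 lower. Of all genes, 24.3% were called higher and 24.9% lower in that contrast.

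**Figure D5:**
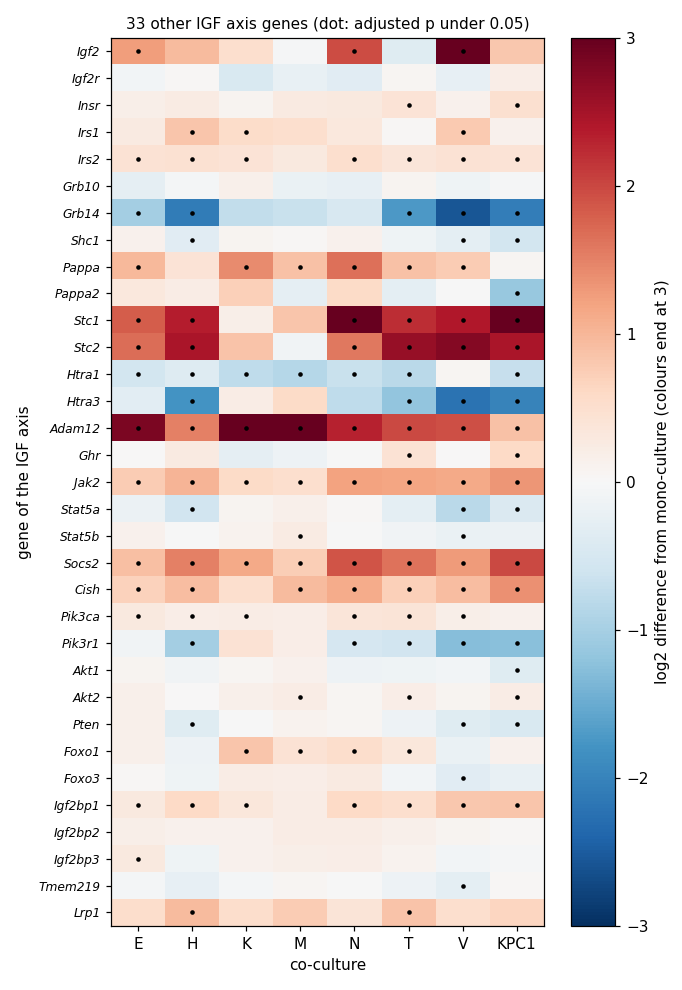
Log2 difference from mono-culture (colour) for the 33 tested genes of the IGF axis that are not members (rows) in the 8 co-cultures (columns), with a dot where the adjusted p was under 0.05. Adam12, Jak2 and Socs2 carry a dot in every column, and Stc1 and Stc2 carry none with clones K and M.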

How the data were processed

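Fibroblast RNA was sequenced in 36 libraries, 4 per group, and the groups were taken from the sample labels. The authors deposited whole-number counts of reads per gene and a table of RPKM values, and the submitters' processing notes name STAR, featureCounts, edgeR and build mm10, without versions. The gene annotation and the strand setting of the counting are not given in the sources used here. From the counts, 14439 of 39017 genes passed filterByExpr and were tested with edgeR 4.0.16 (quasi-likelihood test, TMM scaling, 1 coefficient per group over all 36 libraries, R 4.3.3) with Benjamini-Hochberg adjustment over all genes tested and a threshold of 0.05. Errors of log2 differences are standard errors of the fit. Levels are TMM-scaled CPM, and levels between genes were compared in RPKM as deposited. Alternatives were other scalings and filters, a replicate block, DESeq2 1.42.0, limma 3.58.1 on log2(RPKM + 1) and log2(RPKM + 0.1), fits of only the groups compared and leaving out each library. Scripts were tested on simulated counts.

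The members and gene lists were chosen with earlier results of these data known. Named genes were the 8 members, the axis genes Igf2, Igf2r, Insr, Pappa, Stc1, Stc2 and Ghr, the 3 axis genes with the largest called difference at a mean of at least 2 CPM, and the 2 genes most like each member. Counts of the 54 pairs of libraries within groups differed by more than sampling noise (smallest chi-square per degree of freedom 5.53), so none was counted as a duplicate. Coordinates are those of the GENCODE M21 annotation of GRCm38, matched by gene identifier. The smallest depth, 12532122 counts, makes 1 count worth less than 0.1 CPM.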

Additional observations from a re-analysis of the deposited data

Results flagged for a closer look

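A single library stood far from the other 3 of its group in 4 of the 63 sets of 4 libraries, where chance gives about 3.15, by the gap to the nearest library divided by the range of the group (above the 95% critical value of Dixon). Igfbp5 was 1.15 CPM in clone V replicate 2 against 0.109 to 0.203 CPM in the others (gap 0.910), and 0.0603 CPM, or 1 count, in KPC1 replicate 2 against 0 counts in the others (gap 1). Igfbp7 was 393 CPM in clone N replicate 3 against 316 to 320 CPM (gap 0.947), and 397 CPM in KPC1 replicate 2 against 305 to 317 CPM (gap 0.866).

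The difference from mono-culture was not the same in all lines. By edgeR F-test it differed among the 7 clones for Igf1 (adjusted p = 1.98e-07), Igfbp3 (adjusted p = 3.50e-04), Igfbp4 (adjusted p = 3.18e-06), Igfbp5 (adjusted p = 0.00899), Igfbp6 (adjusted p = 6.66e-06) and Igfbp7 (adjusted p = 3.23e-06), 6 of 7 members beside 67.5% of all genes. KPC1 minus the mean of the clones was -1.69 on the log2 scale for Igf1, 0.89 for Igfbp3, -0.69 for Igfbp6 and 0.31 for Igfbp7. For Igfbp5 the fitted value of -3.43 rests on 1 count in KPC1 and ran from -5.07 (without KPC1 replicate 2) to -0.065 (limma on log2(RPKM + 1)) over the alternatives, so it is no measure of size.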

How the results depend on the processing

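Over all alternatives that gave a value, the calls of Igfbp3 and Igfbp7 in the 8 lines kept their direction and side in 144 of 144 values each, and those of Igfbp5 in 136 of 136, as Igfbp5 was not tested with at least 10 counts in every library. Those of Igfbp6 held in 141 of 144 values, Igfbp4 in 130, Igf1 in 127 and Igf1r in 115, with no change of direction. Igfbp5 passed the filter only through mono-culture, so the number of its values that held adds no support.

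The number of members called between KPC1 and the mean of the clones, 5, was 3 with no filter, 3 with either limma fit, 3 to 5 on leaving out 1 library, and 2 with the low-epithelial libraries, an alternative chosen after seeing the data that keeps 2 libraries of each co-culture. With those libraries, 2068 genes in place of 3320 were called with clone M, and 11 axis genes in place of 20 between KPC1 and the clones. With only the groups compared, 17 axis genes in place of 9 were called with clone M. Neighbouring pairs called fell from 1 to 0 for Igf1 with no filter and for Igfbp5 with at least 10 counts, where it was not tested. The differences of Igfbp5 among the clones did not pass with limma (adjusted p = 0.868 and 0.133).

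Igf1 with KPC1 was called lower than mono-culture with DESeq2 (adjusted p = 0.0422), no scaling (0.0444) and limma (0.0382 and 0.0288), and Igf1 with clone H was called with only the groups compared (0.0281). Igf1 with clone V was not called by limma (0.0966 and 0.116). Igfbp4 with clone H was called with only the groups compared (edgeR adjusted p = 0.0108) and with DESeq2 (0.0448). Igfbp4 with clone V was not called with no scaling (0.0767), no filter (0.0626) or limma (0.0948 and 0.0916).

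Directions turned only where nothing was called. Ghr over the mean of the clones, 0.05, was -0.018 with no scaling, -0.023 and -0.024 with limma, -0.047 with the low-epithelial libraries and -0.032 to 0.11 on leaving out 1 library. Between KPC1 and the clones, Igf1r, 0.04, was -0.23 with the low-epithelial libraries and -0.034 to 0.16 on leaving out 1 library, and Igfbp4, -0.04, was -0.33 to 0.084. The cause of these changes was not tested.

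Groups share replicate numbers, and the running numbers in the library titles go through the co-cultures replicate by replicate, with mono-culture last. The labels do not say that a number marks a shared batch. Deviations of same-numbered libraries correlated at -0.52 to 0.69 between co-cultures (63 of 112 pairs above 0.1), and at -0.58 to 0.46 with mono-culture (5 of 32). The criterion that every same-numbered pair correlate above 0.1 was therefore not met. Yet with 4 numbers to match, 23 of 32 co-culture libraries correlated best with their own number, so co-cultures of 1 number tended to share something. The main tests carried no block and left that shared part in their spread. The fit with a replicate block called 1.06 to 1.28 times as many genes. It added calls of Igf1r with clones E, H, K and N (adjusted p = 0.0283, 0.0330, 0.0460 and 0.0450), of Igf1 with KPC1 (0.0379), of Igfbp4 with clone H (0.0464) and of Igf2r and Insr over the clones (0.0253 and 0.0287), and 2 neighbouring pairs of Igfbp5 in place of 1. At these depths Igfbp2 cannot be compared and Igfbp5 in co-culture rests on few counts.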
